A study of Mus musculus with 12 samples.

Results

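The 9 genes described here encode the apolipoproteins of liver-derived lipoproteins and the protein that loads lipid onto them: Apoa1, Apoa2, Apoa4, Apoa5, Apob, Apoc1, Apoc3, Apoe and Mttp. They were picked by name from 55487 gene identifiers, with earlier results of these data known, and all 9 passed the filter on low counts and were among the 13535 genes tested. RNA was measured in primary mouse hepatocytes, the lipoprotein-secreting cells of the liver, in 12 libraries that form 4 groups of 3. Control cells received no pretreatment and no FAC, an agent whose abbreviation the labels leave unexpanded, and the FAC group received it alone. The Lip-1+FAC group was pretreated on day 2 of culture with liproxstatin-1, which scavenges reactive oxygen species (ROS) of lipids, and then received FAC. In the MT+FAC group the pretreatment was Mito-TEMPO, which scavenges ROS of mitochondria. No group received a scavenger without FAC. Strain, age, sex, doses and FAC exposure times are not given in the sources used here. Nothing in the labels says whether replicates came from separate animals or cultures, so p-values measure the spread between these samples, which may be technical.

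Lipoproteins are particles that carry triglyceride and cholesterol through blood. Apolipoprotein B is the structural protein of very low density lipoprotein (VLDL): microsomal triglyceride transfer protein, encoded by Mttp, adds lipid to it in the endoplasmic reticulum, and apolipoprotein B that is not lipidated is degraded. Apolipoprotein A-I is the structural protein of high density lipoprotein (HDL). The smaller exchangeable apolipoproteins move between particles and set how lipoprotein lipase and cell-surface receptors act on them.

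Gene-assigned counts per library ranged from 22991598 to 31683376, apart from FAC replicate 2 with 52529278. The deposited file of that library is marked "comb", which the sources used here do not explain, and results that change without it are given both ways. The 15 hepatocyte markers examined had counts in every library, with a summed level, in CPM (counts scaled to the library total), of 57544 to 61105 in Control, 51948 to 54714 in FAC, 56355 to 62176 in Lip-1+FAC and 61015 to 61791 in MT+FAC libraries. Markers of macrophages summed to 228 to 261 CPM in Control, 293 to 326 CPM in FAC, 122 to 151.1 CPM in Lip-1+FAC and 147.1 to 180.0 CPM in MT+FAC libraries, with 9 of 10 having counts in every library. Stellate cell and fibroblast markers summed to 20.3 to 28.4, 30.0 to 38.6, 14.4 to 17.4 and 15.9 to 20.96 CPM in the same order, and endothelial markers to 35.8 to 37.1, 34.2 to 34.9, 26.6 to 27.3 and 27.1 to 30.8 CPM. Cholangiocyte markers summed to 58.7 to 69.0 CPM in Control and 98.6 to 145 CPM in the other groups. Of 5 of these that were tested, 4 were higher in FAC than in Control (median log2 fold change 1.32), and 4 were lower and 1 higher in each pretreated group than in FAC (medians -2.46 and -1.88). The sums of macrophage, stellate cell and endothelial markers, like the levels of several members, were thus lower in both pretreated groups than in FAC. Few single markers were called there: with Lip-1, 1 of 9 macrophage markers was higher and 1 lower (median log2 fold change 0.11), 2 of 6 stellate cell markers were lower (median 0.13) and 1 of 6 endothelial markers was higher and 1 lower (median 0.02). With MT the medians were -0.12, 0.29 and 0.24. The part of these cells in the results was not tested. The leukocyte genes Cd3e and Nkg7 were at 0 in all libraries. The share of mitochondrially encoded counts was 0.954% to 1.23% in Control and FAC libraries and 0.639% to 0.798% in the pretreated ones.

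Of the 9 genes, 4 lie in a cluster of 43.3 kb on chromosome 9 (build GRCm38), in the order Apoa1 (46228580 to 46230466, plus strand), Apoc3 (46232933 to 46235636, minus strand), Apoa4 (46240696 to 46243459, plus strand) and Apoa5 (46268633 to 46271919, plus strand). Apoc1 (19689481 to 19692660) and Apoe (19696109 to 19699188) lie side by side on the minus strand of chromosome 7. Apoa2 is on chromosome 1 (171225054 to 171226379, plus strand), Apob on chromosome 12 (7977648 to 8016835, plus strand) and Mttp on chromosome 3 (138089854 to 138144968, minus strand). The members differ greatly in exonic length, from 537 bases in Apoa2 to 13934 bases in Apob.

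**Figure D1:**
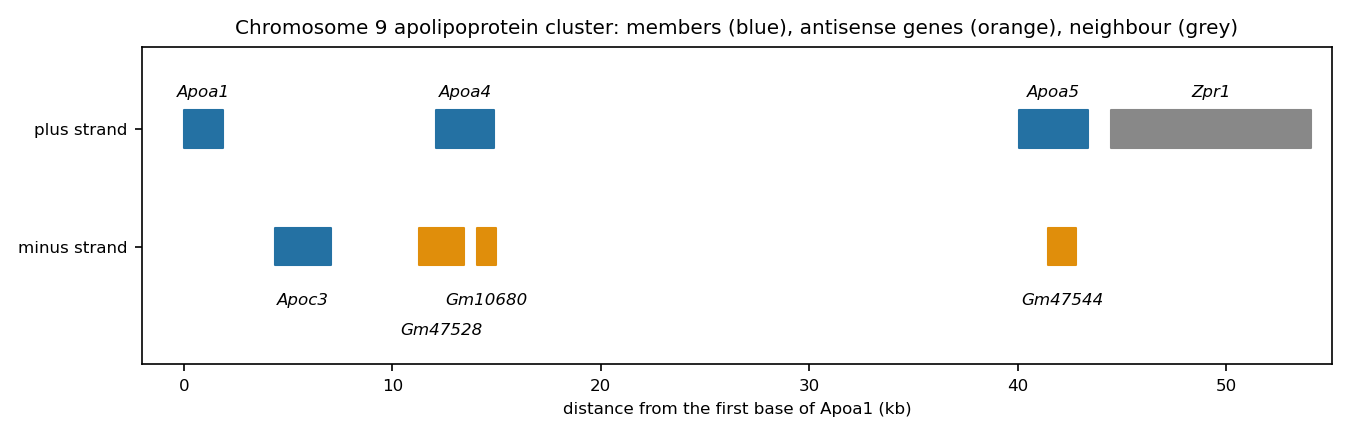
Map of the chromosome 9 cluster in kb from the first base of Apoa1, with plus-strand genes in the upper row and minus-strand genes in the lower row. Gm47528 and Gm10680 overlap both ends of Apoa4 on the opposite strand, Gm47544 lies opposite Apoa5, and Apoa5 is separated from Apoa4 by a longer gap than the other members from each other.

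The stretches just upstream of 4 members are shown: 3 of the chromosome 9 cluster, as neighbours whose transcripts were lower in the pretreated groups, and that of Apob, the one member with a higher transcript level than in Control in all 3 FAC-treated groups. Apoa2 and Apoc1, whose transcripts fell as well, are not shown. They are RefSeq sequences of build GRCm38.p6, 5′ to 3′ on the gene's strand, cut where the first annotated exon begins, and capitals mark matches of the motifs named below. The stretch of Apoa1 is chr9:46228380-46228579 (200 bases, plus strand), that of Apoa4 is chr9:46240594-46240695 (102 bases, plus strand), that of Apoa5 is chr9:46268383-46268632 (250 bases, plus strand) and that of Apob is chr12:7977427-7977647 (221 bases, plus strand).
Apoa1: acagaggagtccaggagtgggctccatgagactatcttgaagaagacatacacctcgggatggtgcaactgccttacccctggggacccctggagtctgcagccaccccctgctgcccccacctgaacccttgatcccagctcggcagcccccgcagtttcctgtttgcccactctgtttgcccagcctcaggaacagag
Apoa4: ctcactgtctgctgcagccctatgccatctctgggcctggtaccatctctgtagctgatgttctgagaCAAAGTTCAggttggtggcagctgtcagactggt
Apoa5: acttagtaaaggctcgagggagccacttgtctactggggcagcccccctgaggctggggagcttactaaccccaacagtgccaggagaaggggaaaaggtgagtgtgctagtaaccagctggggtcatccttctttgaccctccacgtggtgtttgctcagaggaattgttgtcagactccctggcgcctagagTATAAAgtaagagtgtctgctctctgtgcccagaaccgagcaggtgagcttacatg
Apob: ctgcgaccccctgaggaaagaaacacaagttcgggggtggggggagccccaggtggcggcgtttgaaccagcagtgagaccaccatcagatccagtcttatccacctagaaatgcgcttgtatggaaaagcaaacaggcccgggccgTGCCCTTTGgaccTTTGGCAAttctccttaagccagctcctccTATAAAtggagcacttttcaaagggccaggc

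The stretch of Apob held a TATA box (TATAAA) from 60 to 55 bases before the RefSeq start, a match of TTGCNNAA on the minus strand from 90 to 83 bases before it, and a match of CAAAGNNCA on the minus strand from 103 to 95 bases before it. The first of these is a core promoter element, TTGCNNAA is a form of the site of C/EBP factors, and CAAAGNNCA is a core of sites bound by HNF4A and other nuclear receptors. The stretch of Apoa4 held CAAAGTTCA from 182 to 174 bases before the RefSeq start, which lies inside the annotated gene. The RefSeq start of Apob lies inside its annotated gene too. The stretch of Apoa5 held TATAAA from 56 to 51 bases before the start, which is 31 to 26 bases before its other RefSeq start. That of Apoa1 held none of the motifs. Searches were run on both strands of the 250 bases upstream of all 32817 RefSeq promoters, of which 5.49% held CAAAGNNCA, 12.4% TATAAA and 9.57% TTGCNNAA. Among the other members with an entry, Apoa2 held TTGCNNAA in a window at chr1:171221314-171221563 and TATAAA in another at chr1:171224804-171225053. Apoe held TATAAA and GTTAAT (part of the HNF1 site, in 6.44% of promoters) only in windows inside the annotated gene. The Apoe window directly upstream of the gene (chr7:19699189-19699438) held none of the motifs. Mttp held none in its only window, which lies inside the annotated gene. The consensus of the DR1 and LXR direct repeats of nuclear receptors, the antioxidant response element core TGACNNNGC, the cAMP response element TGACGTCA, the HNF4 form CAAAGTCCA and a sterol regulatory element were in no member's window. They were in 0.0335%, 0.0152%, 10.2%, 1.55%, 0.384% and 0.192% of all promoters. A match describes letters and not a site, and Apoc1 and Apoc3 were not searched.

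Apoa4 and Apoa5 need a different count from the other members. The unstranded column of the deposited files gives no gene a read that overlaps exons of 2 genes, and 69.8% of the exonic bases of Apoa4 overlap the antisense genes Gm10680 and Gm47528. The same holds for 20.8% of Apoa5, opposite Gm47544, and 9.49% of Mttp, opposite Gm43691 and Trmt10a. The other 6 members overlapped no other gene's exons. The library kit does not keep strand, and at least 49.9% of each library's stranded counts fell on the less covered strand, so that sense and antisense reads cannot be told apart. In a library without strand, a read shared with an antisense gene is given to the member in one of the 2 deposited stranded columns and to the antisense gene in the other. The sum of a member's 2 stranded columns, called the strand-summed count here, therefore holds each read over its exons once, those from antisense transcripts included. Measured so, Apoa4 held 2847, 2806 and 3237 CPM in the Control libraries, against 350, 287 and 574 CPM in the unstranded column. The unstranded column held 6.72% to 16.3% of the strand-summed reads of Apoa4, and 51.4% to 64.1% of those of Apoa5. The share differed from library to library, being 16.3% in Control replicate 3 and 6.72% in Lip-1+FAC replicate 3 for Apoa4. The strand-summed counts are therefore given beside the unstranded ones for these 2 genes.

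**Figure D2:**
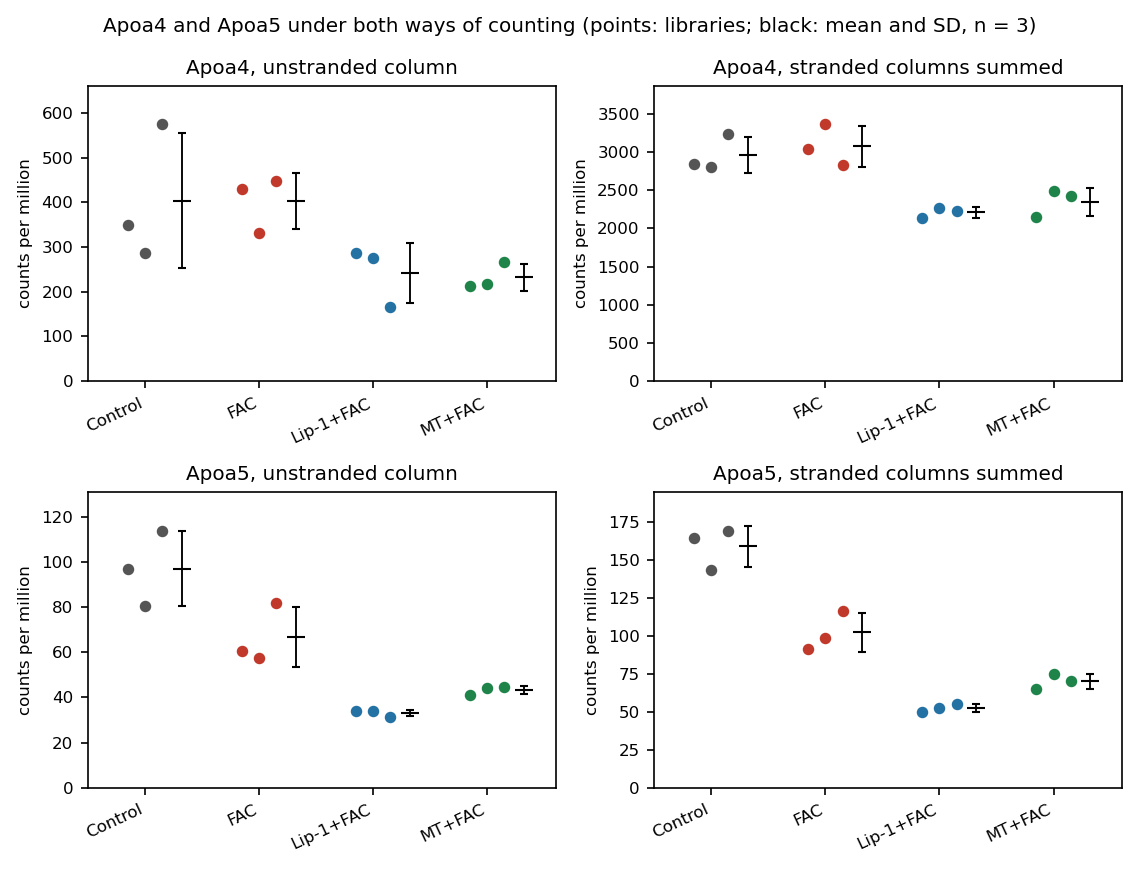
Apoa4 (top) and Apoa5 (bottom) in every library in CPM, from the unstranded column (left) and from the sum of the stranded columns (right); points are libraries, black bars the mean and SD of 3. For Apoa4 the right-hand values, such as 2847 CPM in Control replicate 1, are several times the left-hand ones (350 CPM there), and the Lip-1+FAC and MT+FAC libraries lie below all Control and FAC libraries in both panels.

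Levels per kilobase of exon put the members into 2 tiers. In the unstranded column Apoe was highest in Control cells with 3243 ± 251 CPM per kb (SD, n = 3), ahead of Apoa1 with 2615 ± 258 CPM per kb. Apoa2 followed with 1980 ± 303 CPM per kb and Apoc3 with 1593 ± 76.6 CPM per kb, and Apoc1 held 511 ± 86.5 CPM per kb. Apob and Mttp, the assembly pair, were far lower at 51.7 ± 7.1 and 38.4 ± 1.9 CPM per kb, with a gap between them above the sum of their SDs. Apoa5 held 38.6 ± 6.6 CPM per kb in the unstranded column but 63.0 ± 5.4 CPM per kb strand-summed, which lies above both Apob and Mttp on the same stranded columns (47.3 ± 6.8 and 39.0 ± 1.6 CPM per kb). Apoa4 held 222 ± 83.1 CPM per kb in the unstranded column but 1633 ± 131 CPM per kb strand-summed. On the same stranded columns Apoa4 lay between Apoa2 at 1812 ± 282 and Apoc3 at 1458 ± 74.4 CPM per kb, from neither of which it differed beyond their spread, and below Apoe at 2968 ± 243 CPM per kb. Among 21974 protein-coding genes ranked by level per kb in the unstranded column, Apoe ranked between 7 and 9 in the 4 groups, Apoa1 between 8 and 16, Apoa2 between 16 and 35 and Apoc3 between 26 and 36. Apoc1 ranked between 68 and 127, Apob between 615 and 1006 and Mttp between 1374 and 1700. In sum the 9 genes took 1.47% ± 0.13 of gene-assigned counts in Control and 1.57% ± 0.14 in FAC libraries, and 1.20% ± 0.09 and 1.22% ± 0.01 in Lip-1+FAC and MT+FAC libraries (SD, n = 3).

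**Figure D3:**
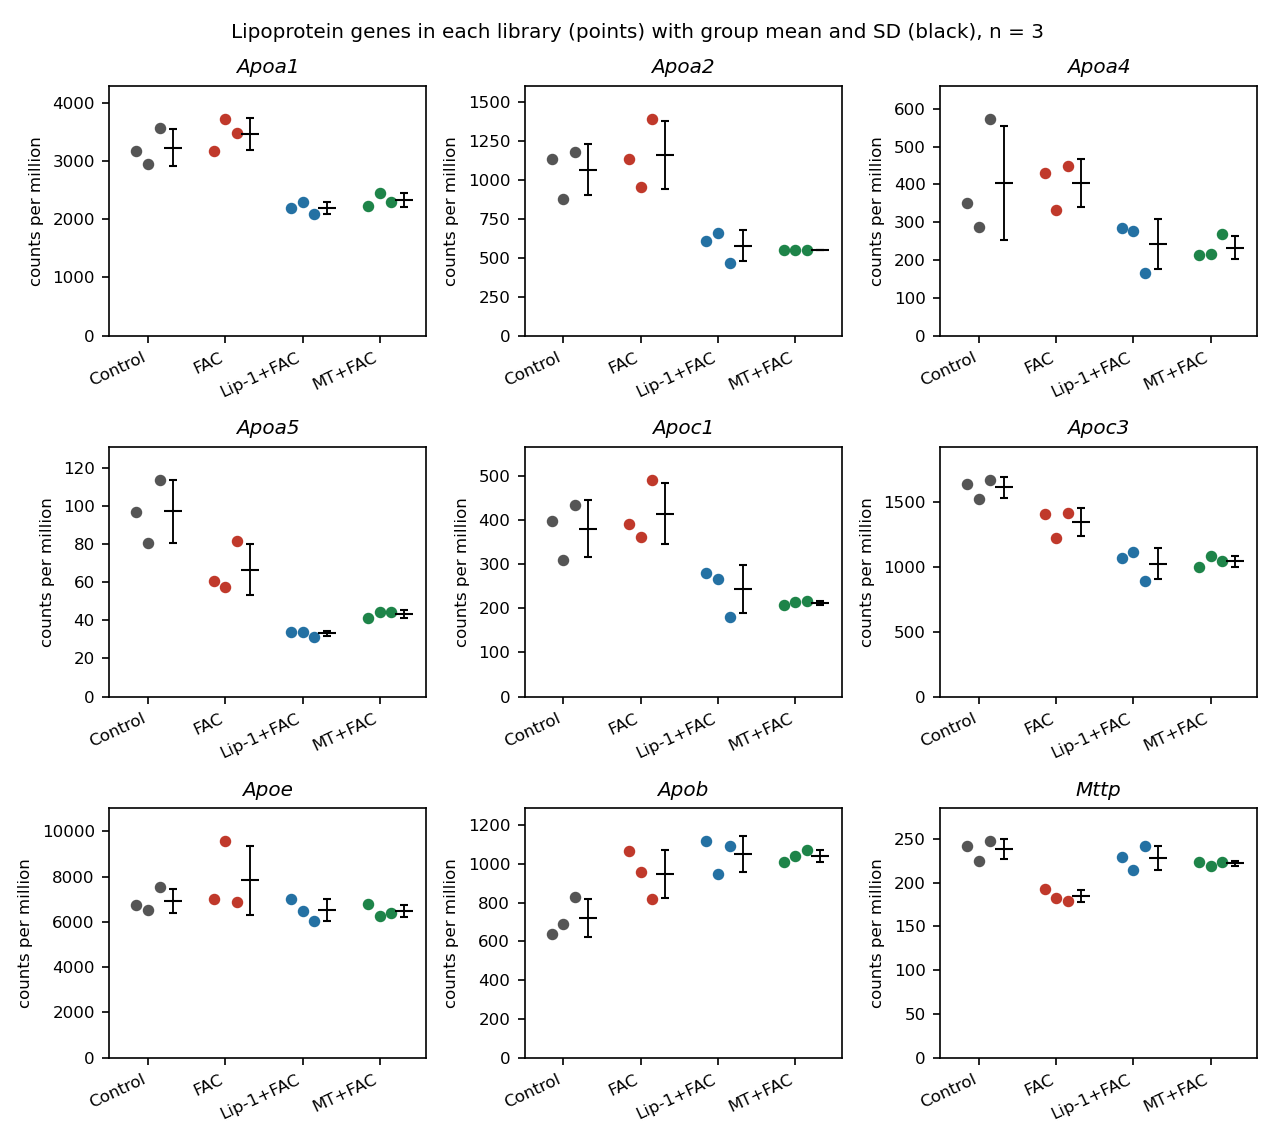
CPM of the 9 genes in each of the 12 libraries (points, coloured by group), with the group mean and SD in black (n = 3), from the unstranded column; the vertical axes start at 0 and differ between panels. Apoa1, Apoa2, Apoc1, Apoc3 and Apoa5 sit lower in both pretreated groups than in Control and FAC, Mttp dips in FAC alone, and Apob is lowest in Control.

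The libraries of a group shared part of their deviation across members. Control replicate 3 held the highest value of its group for 9 of the 9 genes, and Control replicate 2 the lowest for 8 of the 9, all but Apob. Lip-1+FAC replicate 3 held the lowest value of its group for 7 of the 9 in the unstranded column, all but Apob and Mttp, although strand-summed it was not the lowest for Apoa4 or Apoa5. Apoa2 values lay closest together in the MT+FAC libraries. It read 548.6, 549.6 and 548.6 CPM there, against 606.9, 654.4 and 466.7 CPM in the Lip-1+FAC libraries.

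The comparison of FAC with Control asks how the agent alone changed these transcripts. Mttp, Apoa5 and Apoc3 fell, Apob rose, and the transcripts of the major HDL proteins did not pass the test. Thus 4 of the 9 members were called (1 higher, 3 lower; adjusted p under 0.05, edgeR's quasi-likelihood test with Benjamini-Hochberg adjustment over all genes), against a background of 36.6% of all genes tested (17.5% higher, 19.1% lower). Of the 15 hepatocyte markers 6 were lower and 1 higher, with a median log2 fold change of 0.03. The median log2 fold change was 0.10 over the members and -0.01 over all genes. The largest change was 0.55 on the log2 scale, that of Apoa5.

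Mttp, the lipid transfer protein that starts VLDL assembly, read 241.5, 225.1 and 247.9 CPM in Control and 192.8, 182.4 and 178.7 CPM in FAC libraries. All FAC libraries lay below all Control libraries, and the spread within either group was small. Its level fell by 22.5%, with a fitted log2 fold change of -0.37 ± 0.06 (SE, n = 3 per group; adjusted p 7.71e-05 by edgeR).

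Apob, the structural protein of VLDL, read 640.9, 687.9 and 832.0 CPM in Control and 1070.0, 956.8 and 820.7 CPM in FAC libraries. FAC replicate 3 lay just below Control replicate 3, so the groups overlapped at this edge. Its level rose by 31.8%, or 0.40 ± 0.10 on the log2 scale (SE; adjusted p 0.00898 by edgeR). With offsets for GC content and transcript length fitted for each library, the Apob value was 0.10 (adjusted p 0.572) and no longer passed the test.

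Apoa5, a protein of triglyceride-rich lipoproteins that promotes lipolysis by lipoprotein lipase, read 97.0, 80.8 and 114 CPM in Control and 60.7, 57.4 and 81.9 CPM in FAC libraries. FAC replicate 3 lay just above Control replicate 2. Its level fell by 31.6%, a change of -0.55 ± 0.13 on the log2 scale (SE; adjusted p 0.00556 by edgeR). Strand-summed, the groups separated, at 164.4, 143.4 and 169.2 CPM against 91.6, 98.6 and 116.7 CPM. Apoa5 then changed on the log2 scale by -0.64 ± 0.09 (SE; adjusted p 2.18e-05 by edgeR).

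Apoc3, an inhibitor of lipoprotein lipase and of hepatic uptake of remnants, read 1641, 1528 and 1676 CPM in Control and 1409, 1227 and 1418 CPM in FAC libraries. The groups did not overlap. Its level fell by 16.3%, a change of -0.26 ± 0.08 on the log2 scale (SE; adjusted p 0.0143 by edgeR), and without FAC replicate 2 the value was -0.19 (adjusted p 0.084). The Apoc3 value was -0.40 (adjusted p 0.000129) with offsets for GC content and length. Apoa5 and Apoc3, which act on the lipase in opposite directions, thus both fell.

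The HDL genes Apoa1 and Apoa2 and the small exchangeable Apoc1 did not pass the test in FAC. Apoa1 ranged from 2948 to 3576 CPM in Control and from 3181 to 3735 CPM in FAC libraries, with a log2 fold change of 0.10 and a 95% interval from -0.05 to 0.26. Apoa2 ranged from 877 to 1179 CPM and from 952 to 1391 CPM, and its log2 fold change was 0.12 (interval -0.24 to 0.49). Apoc1 ranged from 309 to 435 CPM and from 360.1 to 491 CPM, with a log2 fold change of 0.12 (interval -0.29 to 0.54). Apoe, the ligand by which remnants are taken up through receptors, read 6746, 6516 and 7538 CPM in Control and 7009, 9590 and 6894 CPM in FAC libraries. FAC replicate 2 stood alone at the top, and the log2 fold change of 0.18 ± 0.11 (SE) did not pass the test (adjusted p 0.236 by edgeR). Without FAC replicate 2 the Apoe value was 0.01 (adjusted p 0.965). Apoa4, a lipid-binding protein of chylomicrons, VLDL and HDL, had a log2 fold change of -0.0018 (interval -0.67 to 0.67) in the unstranded column and 0.06 ± 0.07 (SE; adjusted p 0.603 by edgeR) strand-summed. The second value bounds the change of Apoa4 much more tightly than the first.

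**Figure D4:**
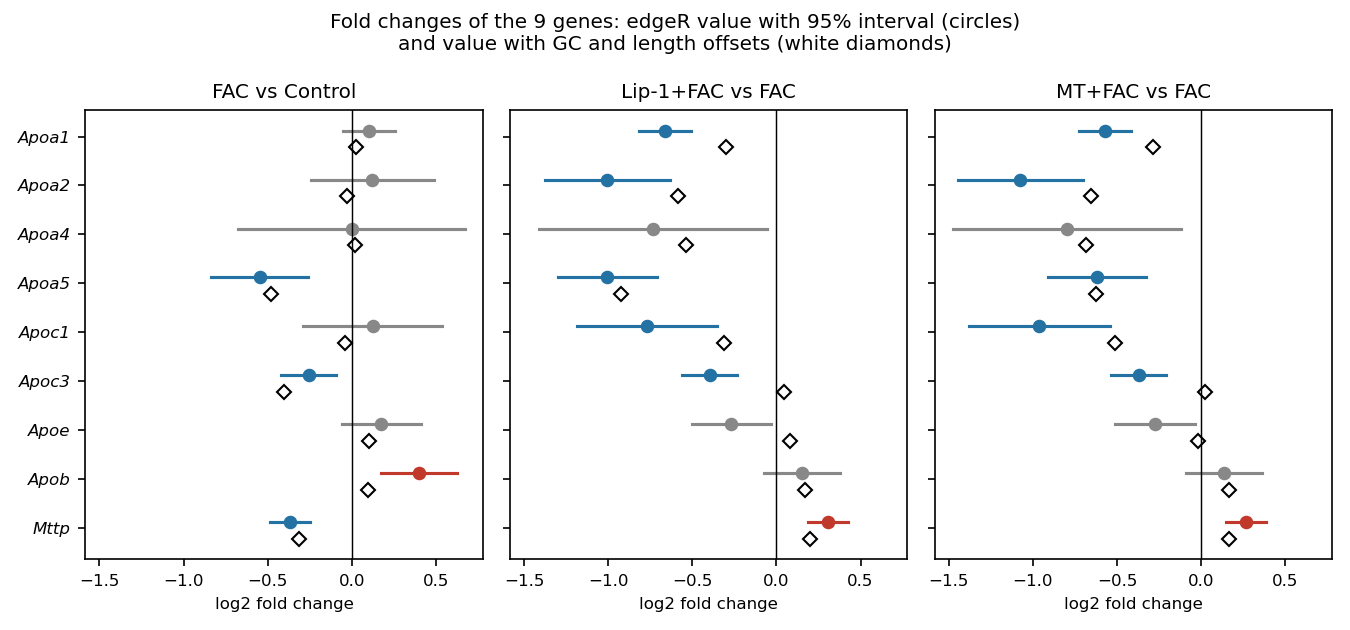
Log2 fold changes of the 9 genes in 3 comparisons, with edgeR's value and 95% interval (circles; blue lower and red higher at adjusted p under 0.05, grey not called) and the value with offsets for GC content and length (white diamonds). Of the 9 genes, only Mttp is lower in FAC and higher in both pretreated groups, and with the offsets Apoc3 moves from below 0 to just above 0 in both comparisons with FAC.

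The comparisons of the pretreated groups with FAC ask how each scavenger, given before FAC, changed these transcripts relative to FAC alone; both use the same FAC libraries. In Lip-1+FAC the transcripts of Apoa1, Apoa2, Apoa5, Apoc1 and Apoc3 fell and that of Mttp rose. In MT+FAC the called genes and their directions were the same. Thus 6 of the 9 members were called in Lip-1+FAC (1 higher, 5 lower), against 39.9% of all genes (20.7% higher, 19.2% lower), and 6 of the 9 in MT+FAC (1 higher, 5 lower), against 40.9% of all genes (21.2% higher, 19.7% lower). The median log2 fold change of the members was -0.66 in Lip-1+FAC and -0.57 in the MT+FAC group, while over all genes it was 0.00 in both. Among the hepatocyte markers 12 of 15 were lower and 2 higher in Lip-1+FAC than in FAC, with a median log2 fold change of -0.38, and 11 of 15 were lower and 2 higher in MT+FAC, with a median of -0.35. The summed level of these markers, which a few abundant genes can set, was by contrast higher in both pretreated groups than in FAC. Whether the members moved apart from hepatocyte genes at large was not tested. In bulk RNA, fewer cells of a type and less RNA per cell cannot be told apart.

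Apoa2, a structural protein of HDL, showed the largest fall among the abundant members. It read 1128, 952 and 1391 CPM in FAC libraries, 606.9, 654 and 467 CPM in Lip-1+FAC and 549, 549.6 and 549 CPM in MT+FAC libraries. No pretreated library reached the lowest FAC library. Relative to FAC, Apoa2 had a log2 fold change of -1.01 ± 0.17 (SE; adjusted p 0.000871 by edgeR) in Lip-1+FAC and -1.08 ± 0.17 (SE; adjusted p 0.00059 by edgeR) in the MT+FAC group.

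Apoa1, the main HDL protein and activator of cholesterol esterification by Lcat, read 3181, 3735 and 3486 CPM in FAC libraries. The Lip-1+FAC libraries held 2191, 2299 and 2084 CPM and the MT+FAC libraries 2232, 2457 and 2302 CPM. Both pretreated groups lay wholly below the FAC group. The log2 fold changes of Apoa1 were -0.66 ± 0.07 (SE; adjusted p 1.57e-06 by edgeR) and -0.57 ± 0.07 (SE; adjusted p 9.63e-06 by edgeR).

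Apoc1, a small exchangeable apolipoprotein of VLDL and HDL, read 391, 360.1 and 491 CPM in FAC libraries, 281, 267 and 181 CPM in Lip-1+FAC and 208, 213 and 217 CPM in MT+FAC libraries. The groups did not overlap with FAC. Relative to FAC, Apoc1 had a log2 fold change of -0.77 ± 0.19 (SE; adjusted p 0.00883 by edgeR) in Lip-1+FAC and -0.96 ± 0.19 (SE; adjusted p 0.00266 by edgeR) in the MT+FAC group.

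Apoc3 read 1074, 1114 and 891 CPM in Lip-1+FAC and 1003, 1083 and 1046 CPM in MT+FAC libraries, all below the FAC libraries. Its log2 fold changes were -0.40 ± 0.08 (SE; adjusted p 0.000553 by edgeR) and -0.37 ± 0.08 (SE; adjusted p 0.000991 by edgeR). With offsets for GC content and length these Apoc3 values were 0.04 (adjusted p 0.652) and 0.02 (adjusted p 0.832), and the falls against FAC were lost.

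Apoa5 read 34.0, 34.0 and 31.4 CPM in Lip-1+FAC and 41.1, 44.2 and 44.6 CPM in MT+FAC libraries, below all FAC libraries. Relative to FAC its log2 value changed by -1.01 ± 0.14 (SE; adjusted p 6.87e-05 by edgeR) in Lip-1+FAC and by -0.62 ± 0.13 (SE; adjusted p 0.00258 by edgeR) in the MT+FAC group. Strand-summed, the Apoa5 changes were -0.96 ± 0.09 and -0.54 ± 0.09.

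Apoa4 read 430.5, 331 and 448 CPM in FAC libraries, 286, 276 and 165 CPM in Lip-1+FAC and 212, 217 and 267 CPM in MT+FAC libraries in the unstranded column. The libraries did not overlap, yet with a spread this wide the log2 fold changes of -0.73 ± 0.30 (SE; adjusted p 0.0817 by edgeR) and -0.80 ± 0.30 (SE; adjusted p 0.061 by edgeR) did not pass the test. Strand-summed, the FAC libraries held 3045, 3363 and 2828 CPM. The Lip-1+FAC libraries held 2137, 2274 and 2223 CPM and the MT+FAC libraries 2144, 2487 and 2427 CPM. Apoa4 then fell by 0.48 ± 0.07 on the log2 scale in Lip-1+FAC (SE; adjusted p 6.62e-05 by edgeR) and by 0.39 ± 0.07 in MT+FAC (SE; adjusted p 0.000505 by edgeR). By this edgeR fit the call of Apoa4 thus differed between the 2 ways of counting. Its strand-summed fold change was smaller and better determined than in the unstranded column. Some other settings called Apoa4 in the unstranded column as well, as given in the closing section.

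Apoe read 6999, 6489.9 and 6024 CPM in Lip-1+FAC and 6783, 6255 and 6370.1 CPM in MT+FAC libraries. Its log2 fold changes of -0.27 ± 0.11 (SE; adjusted p 0.0684 by edgeR) and -0.28 ± 0.11 (SE; adjusted p 0.06 by edgeR) did not pass the test. They turned on single FAC libraries. Without FAC replicate 2, which stood alone at 9590 CPM, the Apoe values were -0.09 (adjusted p 0.357) and -0.10 (adjusted p 0.306). Without FAC replicate 1 the Apoe values were -0.34 (adjusted p 0.043) and -0.36 (adjusted p 0.032), and without FAC replicate 3 they were -0.35 (adjusted p 0.027) and -0.36 (adjusted p 0.023).

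The assembly pair went the other way or stayed within its error. Mttp read 229.5, 214 and 241 CPM in Lip-1+FAC and 223, 219 and 224 CPM in MT+FAC libraries, all above the FAC libraries. It rose by 0.31 ± 0.06 on the log2 scale (SE; adjusted p 0.000381 by edgeR) and by 0.27 ± 0.06 (SE; adjusted p 0.00134 by edgeR). Apob read 1122, 949 and 1091 CPM in Lip-1+FAC and 1013, 1042 and 1072 CPM in MT+FAC libraries, overlapping FAC. Its log2 fold changes against FAC were 0.15 (95% interval -0.07 to 0.38) and 0.13 (interval -0.09 to 0.36), neither past the test.

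Transcript length and base composition moved with these results. Among all protein-coding genes tested, the 469 whose longest transcript is under 1000 bases had a median log2 fold change of -0.26 in Lip-1+FAC against FAC and -0.34 in MT+FAC, with 75.3% and 79.1% of them below 0. The 4515 genes with transcripts over 4000 bases had medians of 0.05 and 0.03. The longest annotated transcript has 518 bases for Apoa2, 532 for Apoc1, 709 for Apoc3, 1035 for Apoa1, 1408 for Apoe, 2515 for Apoa5, 3963 for Mttp and 13934 for Apob. With offsets for GC content and length fitted for each library, the log2 fold changes in Lip-1+FAC and MT+FAC were -0.30 and -0.29 for Apoa1, -0.59 and -0.65 for Apoa2, and -0.92 and -0.63 for Apoa5. Mttp rose by 0.20 and 0.16 under these offsets, and all of these values still passed the test. Apoc1 had -0.31 (adjusted p 0.104) in Lip-1+FAC and -0.51 (adjusted p 0.0133) in the MT+FAC group. Apoc3 was near 0 in both, as given above. The offsets remove any change that genes of one length and GC content share, whatever its source, and the part of length in the results was not tested beyond these values.

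Against each other, the 2 scavenger groups gave no called member: 0 of 9, against 1.34% of all genes by edgeR (0.465% higher, 0.879% lower), with 1 of 9 at an unadjusted p under 0.05. That member was Apoa5, which was higher in all MT+FAC than in all Lip-1+FAC libraries, with a log2 difference of 0.38 ± 0.14 (SE; edgeR p 0.0153, adjusted p 0.225). Strand-summed, at 65.2, 74.9 and 70.3 CPM against 50.03, 52.6 and 54.95 CPM, the log2 difference of Apoa5 was 0.42 ± 0.09 (SE; adjusted p 0.0239 by edgeR) and passed the test. Over the alternatives tried, the log2 difference of Apoa5 lay between 0.29 and 0.43, with adjusted p from 0.00034 to 0.496. The other 8 members differed by -0.19 (Apoc1) to 0.09 (Apoa1) on the log2 scale. The 95% interval was narrowest for Mttp, from -0.16 to 0.08, and widest for Apoa4 in the unstranded column, from -0.74 to 0.61. These intervals bound the difference between the scavengers and do not show that it is 0.

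The comparisons with Control ask where the pretreated groups stood relative to cells that saw neither FAC nor a scavenger; they share their Control libraries with each other and with FAC against Control. In each group 6 of 9 members were called (1 higher, 5 lower), against 30.2% of all genes with Lip-1 (15.4% higher, 14.8% lower) and 19.8% with MT (9.71% higher, 10.1% lower). The hepatocyte markers moved the same way, with 14 of 15 lower with Lip-1 (median log2 fold change -0.63) and 12 of 15 lower and 1 higher with MT (median -0.56). Apoa5 stood lowest, with log2 fold changes of -1.55 ± 0.14 (SE; adjusted p 3.24e-06 by edgeR) in Lip-1+FAC and -1.17 ± 0.14 (SE; adjusted p 7.8e-05 by edgeR) in the MT+FAC group. Its level thus fell by 65.9% and fell by 55.5%. Apoa2 had -0.88 ± 0.17 (adjusted p 0.00274 by edgeR) and -0.95 ± 0.17 (adjusted p 0.00334 by edgeR). Apoa1 had -0.56 ± 0.07 and -0.47 ± 0.07, Apoc3 -0.65 ± 0.08 and -0.63 ± 0.08, and Apoc1 -0.65 ± 0.18 and -0.84 ± 0.19, all past the test. With offsets for GC content and length Apoa1 had -0.28 and -0.26 and Apoc3 -0.36 and -0.38, smaller by over 1.5 times and still past the test. Apoa2 then had -0.62 and -0.68, also past the test. Apoc1 then had -0.35 (adjusted p 0.0933) with Lip-1, no longer past the test, and -0.55 (adjusted p 0.0219) with MT. The Apoc1 call in Lip-1+FAC rested on Control replicates 1 and 3, with -0.61 (adjusted p 0.075) and -0.53 (adjusted p 0.104) when either was left out. That in MT+FAC was lost without Control replicate 3, at -0.73 (adjusted p 0.053). Strand-summed, the log2 fold changes of Apoa4 were -0.42 ± 0.07 (SE; adjusted p 0.000333 by edgeR) and -0.33 ± 0.07 (SE; adjusted p 0.00459 by edgeR), and in the unstranded column -0.74 and -0.80, neither past the test.

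Apob alone among the 9 genes rose past the test relative to Control when a scavenger preceded FAC, by 0.55 ± 0.10 (SE; adjusted p 0.00142 by edgeR) and 0.53 ± 0.10 (SE; adjusted p 0.00335 by edgeR) on the log2 scale, with no overlap of libraries. With offsets for GC content and length these Apob values were 0.27 (adjusted p 0.13) and 0.26 (adjusted p 0.167). Apob has the longest transcript of the members, and the 4515 genes with transcripts over 4000 bases had median log2 fold changes of 0.12 and 0.11 in the same comparisons. The 469 genes with transcripts under 1000 bases, the class of Apoa2, Apoc1 and Apoc3, had medians of -0.32 and -0.37 there. Of that class 85.1% and 89.1% lay below 0. The log2 fold change of Mttp was -0.06 (95% interval -0.18 to 0.06) in Lip-1+FAC and -0.10 (interval -0.22 to 0.02) with MT against Control. That of Apoe was -0.09 (interval -0.33 to 0.14) and -0.10 (interval -0.34 to 0.14). Neither of these 2 genes passed the test in either group.

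Across the 12 libraries the members fell into patterns that can be described but, with 4 groups behind them, not tested. Apoa1, Apoa2, Apoa4, Apoa5, Apoc1 and Apoc3 correlated with each other at Pearson coefficients of 0.79 to 0.98 over 15 pairs of log2 CPM. Apob had coefficients of -0.80 to -0.42 with these 6, Mttp of -0.45 to -0.04 and Apoe of 0.31 to 0.68. The libraries share group, depth and base composition, so these are not independent points. Among 3862 other protein-coding genes with a mean of at least 50 CPM, those most like Apoa2 were Ttr (0.98), S100a1 (0.98) and Pgam1 (0.98). Most like Apoc1 were Rps24 (0.99), Rps14 (0.99) and Serpina1c (0.99), and most like Apoa1 were Cdkn1a (0.99), Bsg (0.98) and Mif (0.98). Those for Apoa4 were Nme1 (0.98), Atox1 (0.98) and Rpl41 (0.98), for Apoa5 Mrpl17 (0.98), Slc25a5 (0.98) and Cisd3 (0.97), and for Apoc3 Slc25a5 (0.97), Mrpl17 (0.97) and Mrpl30 (0.96). Of these 18 entries 10 have a longest transcript under 1500 bases, where the median of all candidates was 3399 bases. Apob was most like Trp53 (0.95), Supt6 (0.93) and Zbtb20 (0.93), Apoe like Map3k11 (0.93), Csnk1g2 (0.93) and Map2k2 (0.92), and Mttp like Adk (0.95), Dus1l (0.95) and Lgals9 (0.95). These values use the unstranded column also for Apoa4 and Apoa5. With their strand-summed counts, the coefficients among the 6 were 0.74 to 0.98. The genes most like Apoa4 were then Hgfac (0.97), Stxbp2 (0.96) and Irs2 (0.96), none of them among the 3 of the unstranded column, while those like Apoa5 included Slc39a14 (0.98) and Mrpl17 (0.97).

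The genes that flank the clusters were read for comparison. Zpr1, next to Apoa5, had log2 fold changes of -0.11 (adjusted p 0.146 by edgeR) in Lip-1+FAC and -0.15 (adjusted p 0.0382 by edgeR) in the MT+FAC group against FAC. Sik3, next to Apoa1, fell by 0.57 (adjusted p 1.7e-06 by edgeR) and 0.46 (adjusted p 2.05e-05 by edgeR) on the log2 scale, close to Apoa1 itself, although it is not an apolipoprotein gene. On chromosome 7, Tomm40, next to Apoe, fell by 0.32 (adjusted p 0.000952 by edgeR) and 0.22 (adjusted p 0.0138 by edgeR). Apoc4, next to Apoc1, had 0.15 (adjusted p 0.755 by edgeR) and -0.05 (adjusted p 0.928 by edgeR) with an SE of 0.33. Differences between neighbours were not tested.

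Genes that edit, lipidate, retain or degrade apolipoprotein B moved in both directions. The lists were drawn up by role. In FAC against Control, 8 of 22 lipidation and secretion genes were called (2 higher, 6 lower), a share near the 36.6% of all genes. The calls took in 3 of 4 editing genes (2 higher, 1 lower) and 3 of 8 retention and degradation genes (2 higher, 1 lower). Tm6sf2, which enlarges VLDL lipid loading, fell by 0.86 ± 0.09 on the log2 scale (SE; adjusted p 1.3e-06 by edgeR), and Sar1b, a GTPase of the vesicles that export lipoproteins from the endoplasmic reticulum, fell by 0.40 ± 0.06. A1cf, the cofactor of Apob mRNA editing, fell by 1.05 ± 0.10, while the editing enzyme gene Apobec1 rose by 0.33 ± 0.07. The chaperone gene Hspa5 rose by 0.27 ± 0.07. P4hb, the partner subunit of Mttp in the transfer complex, had 0.09 ± 0.05 (SE; adjusted p 0.21 by edgeR) and did not follow Mttp past the test.

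Against FAC, more of the called lipidation and secretion genes were higher than lower in the pretreated groups. Of the 22 lipidation and secretion genes, 12 were called in Lip-1+FAC (9 higher, 3 lower) and 14 in MT+FAC (10 higher, 4 lower), beside 39.9% and 40.9% of all genes. Tm6sf2 rose by 0.91 ± 0.09 and 0.96 ± 0.09 on the log2 scale, and A1cf by 0.93 ± 0.10 and 0.84 ± 0.10. Apobec1 fell by 0.50 ± 0.07 and 0.45 ± 0.07, and Ces1d, a carboxylesterase of triglyceride turnover, fell by 0.94 ± 0.10 and 0.90 ± 0.10. P4hb had -0.04 and -0.03 (edgeR adjusted p 0.605 and 0.64). Of the 8 retention and degradation genes, 7 were called in Lip-1+FAC (6 higher, 1 lower) and 3 in MT+FAC (2 higher, 1 lower). Syvn1, a ubiquitin ligase of the endoplasmic reticulum, had log2 fold changes of -0.32 in Lip-1+FAC and -0.20 in the MT+FAC group. Without MT+FAC replicate 3, Syvn1 had -0.17 in MT+FAC and was not called.

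The other lists are given by their counts, to be read beside the 36.6%, 39.9% and 40.9% of all genes called in FAC against Control and in the 2 comparisons with FAC. Of 10 other apolipoprotein genes tested, 6 were called in FAC (1 higher, 5 lower), 8 in Lip-1+FAC (5 higher, 3 lower) and 8 in MT+FAC (5 higher, 3 lower). Saa4 and Apon fell by 0.99 ± 0.10 and 0.95 ± 0.07 on the log2 scale in FAC. The acute-phase genes Saa2 and Saa1, whose similar sequences make their separate counts uncertain, fell by 1.67 ± 0.16 and 1.40 ± 0.17 with Lip-1 and by 1.49 ± 0.16 and 1.31 ± 0.17 with MT. Apoc2 and Apod, with at most 4 and 7 counts in a library, were not tested. Of 6 genes of lipoprotein lipase control, 3 were lower in FAC, led by the inhibitor Angptl4 (-0.99 ± 0.06), which fell beside Apoc3 and Apoa5. In Lip-1+FAC 2 were higher and 1 lower, with Lmf1 at -0.39, and in MT+FAC 3 were higher and 1 lower, with Angptl4 at 0.63 and Angptl8 at 0.59. Angptl4 differed between the scavenger groups by 0.62 ± 0.06 (SE; adjusted p 5.7e-05 by edgeR). Of 9 HDL genes, 2 were lower in FAC (Lcat at -0.29 and Scarb1 at -0.18), 1 was higher and 1 lower in Lip-1+FAC, and 3 were higher and 1 lower in MT+FAC. Bmp1 had 0.21 and 0.24 and Lipc -0.34 and -0.22 against FAC. Abca1, which lipidates Apoa1, had -0.12, -0.26 and -0.01 in the 3 comparisons (edgeR adjusted p 0.495, 0.108 and 0.973). Its Lip-1+FAC value passed with no filter (-0.26, adjusted p 0.01 by edgeR) and with only the libraries compared (-0.27, adjusted p 0.03). With offsets for GC content and length Abca1 passed in Lip-1+FAC (-0.25, adjusted p 0.029) and in FAC (-0.36, adjusted p 0.0027). Of 10 receptor genes, 3 were higher and 3 lower in FAC, led by Vldlr at 0.63 and Cd36 at -0.56. Cd36 rose by 1.94 ± 0.17 and 1.79 ± 0.17 and Vldlr fell by 1.19 ± 0.18 and 0.94 ± 0.18 in the pretreated groups, where 2 were higher and 4 lower (Lip-1+FAC) and 2 higher and 3 lower (MT+FAC). Several calls of this paragraph rested on single libraries. In FAC, the call of Vldlr was lost without Control replicate 2 or 3 (0.64 and 0.51) or FAC replicate 2 or 3 (0.57 and 0.62), and that of Cd36 without the same libraries (-0.35, -0.52, -0.57 and -0.50). Scarb1 lost its call without Control replicate 3 (-0.15) or FAC replicate 1 (-0.18). With no filter on low counts the FAC calls of Vldlr (0.64, adjusted p 0.061 by edgeR) and Scarb1 (-0.17, adjusted p 0.065) were lost too. Offsets for GC content and length ended those of Scarb1 (-0.08) and Cd36 (-0.45). Cd36 also lost its call with only the libraries compared (-0.54). Against FAC, Bmp1 lost its call in Lip-1+FAC without any single library of 5 (0.18 to 0.22) and in MT+FAC without FAC replicate 1 or MT+FAC replicate 1 (0.20 and 0.21). The call of Lipc in MT+FAC was lost without FAC replicate 1 or MT+FAC replicate 3 (-0.18 for either).

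Among 27 tested transcriptional regulators of apolipoprotein genes, 13 were called in FAC (5 higher, 8 lower), 16 in Lip-1+FAC (5 higher, 11 lower) and 14 in MT+FAC (5 higher, 9 lower), where 36.6%, 39.9% and 40.9% of all genes were called. Nr1h4, the bile acid receptor, fell by 1.49 ± 0.07 on the log2 scale in FAC and rose by 0.93 ± 0.07 with Lip-1 and 0.91 ± 0.07 with MT relative to FAC. Fos rose by 1.43 ± 0.09 in FAC and fell by 2.47 ± 0.10 and 1.84 ± 0.09 in the pretreated groups, and Cebpb had -0.91 ± 0.27 and -0.92 ± 0.27 there. The Cebpb calls were lost without FAC replicate 2 (-0.64 and -0.66). That with Lip-1 was also lost without Lip-1+FAC replicate 2 or 3 (-0.93 and -0.73), and that with MT without MT+FAC replicate 1, 2 or 3 (-0.94, -0.86 and -0.98). With offsets for GC content and length the Cebpb values were -0.33 and -0.40, neither past the test. Creb3l3, an activator of Apoa4 and Apoa5, had -0.35 (adjusted p 0.002 by edgeR), -0.31 (adjusted p 0.0045 by edgeR) and -0.13 (adjusted p 0.215 by edgeR) in FAC, Lip-1+FAC and MT+FAC. Ppara, the fatty acid receptor that regulates Apoa1, Apoa5 and Apoc3, had -0.21 (adjusted p 0.13 by edgeR), -0.69 (adjusted p 0.0001 by edgeR) and -0.40 (adjusted p 0.0061 by edgeR). Hnf4a, a main activator of apolipoprotein genes in liver, had -0.27, -0.07 and 0.03 (edgeR adjusted p 0.0681, 0.644 and 0.832), none past the test, although without Control replicate 3 its value in FAC was -0.39 (adjusted p 0.002). In FAC Hnf4a also passed with upper-quartile scaling (-0.29, adjusted p 0.045 by edgeR). It did so too with no filter (-0.26, adjusted p 0.0012) and with offsets for GC content and length (-0.28, adjusted p 0.021). Fos differed between the scavenger groups by 0.63 ± 0.10 (SE; adjusted p 0.00226 by edgeR).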

How the data were processed

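RNA was measured in 12 libraries of cultured mouse hepatocytes, 3 in each of 4 groups, as the titles name them. cDNA was made with SMART-Seq v4 and libraries with Nextera XT, neither of which keeps strand, per the labels' protocols. The authors deposited raw counts of reads per gene in the layout of STAR, with an unstranded and 2 stranded columns; STAR and build GRCm38 are named in the submitters' processing notes, and the version and annotation are not given in the sources used here. Lines naming no gene held 18.8% to 24.2% of the listed reads and were left out of all totals and fits. Reads from PCR-amplified cDNA without molecular identifiers are not independent molecules.

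Of 55487 identifiers, 55227 matched GENCODE M21 (GRCm38), which gave names, coordinates, lengths and GC content. The unstranded counts were filtered by filterByExpr, scaled by TMM and tested with edgeR 4.0.16 (limma 3.58.1, R 4.3.3): quasi-likelihood F test, robust, 12 libraries, 4 group means, two-sided, Benjamini-Hochberg over 13535 genes, called at an adjusted p under 0.05. The SE follows from the fold change and F. CPM are counts scaled to the TMM-adjusted library total, and log2 CPM use a prior count of 2. The test was run on simulated counts with the same spread for all genes, which does not match the unequal spread of the members. Alternatives changed scaling, filter, libraries, counting columns, the test (DESeq2 1.42.0), GC and length offsets (splines with 5 degrees of freedom) and the replicate block. blastn 2.17.0+ (95% identity, 100 bases) found no near-copies of the members beyond their overlapping antisense genes. Promoters were matched by symbol for 7 of 9 members.

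The members, lists and tests were chosen with earlier results of these data known. Named genes are the members, up to 3 called genes per list and comparison with the largest change at a mean of at least 5 CPM (mainly the first 2 are printed), fixed genes (Hnf4a, Ppara, Creb3l3, Abca1, Apobec1, P4hb and others), the 3 genes most like each member, and cluster neighbours. Some genes that this rule names are not reported here.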

Additional observations from a re-analysis of the deposited data

How the results depend on the processing

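Of the 28 called member values, 19 passed the test under each of the 17 alternatives run for their comparison. The 9 that did not were lost with offsets for GC content and length (Apob in 3 comparisons with Control, Apoc1 in Lip-1+FAC, and Apoc3 in both comparisons with FAC), or without the single libraries named beside Apoc3 and Apoc1. Apoc1 in Lip-1+FAC against Control was also lost without a filter (-0.63, adjusted p 0.074), with only the libraries compared (-0.64, adjusted p 0.07) and with offsets (-0.35, adjusted p 0.093). DESeq2 called Apoe against FAC (-0.28 in both, adjusted p 0.03 and 0.024) and Apoa4 against FAC (-0.74 with Lip-1, -0.81 with MT) and against Control (-0.72 and -0.79). In MT+FAC against FAC, edgeR also called Apoa4 at a mean CPM of at least 5 (-0.81, adjusted p 0.042). The same held with only the libraries compared (-0.80, adjusted p 0.0025). Apoe against FAC also passed at a mean CPM of at least 5 (-0.29 in both, adjusted p 0.045 and 0.041) and, with MT, on the summed stranded columns (-0.30, adjusted p 0.046) and with totals and TMM without members and mitochondrial genes (-0.29, adjusted p 0.047). Reversals included the called falls of Apoc3 against FAC, and otherwise concerned values that were not called. Apoa4 in FAC against Control was 0.0194 with RLE scaling, 0.0041 with totals and TMM without members and mitochondrial genes, 0.0126 with no filter, 0.0036 with a mean CPM of at least 5, 0.0179 with only the libraries compared, 0.0551 with stranded columns summed, 0.0206 with offsets and 0.0202 with DESeq2. It lay between -0.197 and 0.340 with single libraries left out. With offsets, Apoa2 and Apoc1 in FAC were -0.0295 and -0.0379 (-0.0317 to 0.246 and -0.0177 to 0.230 with libraries left out), Apoc3 against FAC was 0.0433 and 0.0217, Apoe was 0.0780 in Lip-1+FAC against FAC, and 0.181 and 0.0866 in the pretreated groups against Control. In MT+FAC against FAC, Abca1 was 0.0055 with upper-quartile scaling, 0.0176 with library size alone, 0.0020 with no filter, 0.0152 with offsets and -0.0934 to 0.108 with libraries left out. Hnf4a there was -0.0610 to 0.0966 with libraries left out. The 182 genes called between the scavenger groups became 477 with no filter, 312 with only the libraries compared, 465 with DESeq2 and 74 to 156 with a library left out (74 without MT+FAC replicate 3, 76 and 77 without Lip-1+FAC replicates 1 and 2, 86 without MT+FAC replicate 2). With stranded columns the members' share of counts was 1.62% in Control libraries, 1.31% with Lip-1 and 1.35% with MT. The causes were not tested, beyond the smaller sets of genes or libraries that these settings build in.

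Same-numbered libraries of different groups shared little deviation: 3 of 18 such pairs had correlated deviations over 0.1 (range -0.249 to 0.164). Only 4 of 12 libraries correlated best with their own number. This cannot show whether same-numbered libraries shared a preparation, which the labels do not state. With the replicate number as a block, 4863 genes were called in FAC against Control, 5278 (Lip-1) and 5488 (MT) in the pretreated groups against FAC, and 193 between the scavenger groups. The block changed no member's call, Apoa4 in FAC was 0.0170, and among the other genes named the calls of Cebpb against FAC were lost (-0.91 with Lip-1, adjusted p 0.0568; -0.92 with MT, adjusted p 0.0527).

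The lowest count of a member in a library was 742, so that with 3 libraries per group the spread between libraries set the intervals, widest for Apoa4 in the unstranded column.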
